A study of Mus musculus with 31 samples.

Results

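The ADAM and ADAMTS genes encode zinc metalloproteases, and their signal was followed here through the conversion of mouse embryonic fibroblasts by reprogramming factors. Members were all genes whose symbol is Adam with a number, Adamts with a number or Adamtsl with a number, among table rows carrying a single gene symbol. The rule found 57 of 19938 genes, on 82 rows of the table. For the 4 genes with several rows (Adamts3, Adamts9, Adamts17 and Adamtsl1), the row of highest mean signal over all 31 arrays stands for the gene. Adamts2 had no such row and is not analysed here.

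ADAM proteins sit in the cell membrane, where several of them cut neighbouring membrane proteins and so release growth factors, cytokines or adhesion molecules, a step called shedding. ADAMTS proteins are secreted and act on the extracellular matrix: some cleave large proteoglycans such as versican and aggrecan, others trim procollagens or cut cartilage oligomeric matrix protein (COMP) or von Willebrand factor. The ADAMTS-like proteins share the ancillary domains but lack the protease domain. Many further ADAM genes are known chiefly from testis, sperm and epididymis. Fibroblasts are a main source of secreted matrix and of enzymes that remodel it, and the loss of fibroblast genes is an early step in reprogramming.

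The cells were mouse embryonic fibroblasts grown in serum-containing medium. Infection took place on day 0. The 4F arm carried Oct4, Sox2, Klf4 and c-Myc viruses and was sampled daily from day 1 to day 6 and then on days 8, 10 and 12 (16 arrays). In the 3F arm the c-Myc virus was left out, and the sampling days were 3, 5, 8 and 12 (4 arrays). The virus control carried GFP (9 arrays: days 1, 3, 5, 8 and 12). Uninfected fibroblasts of day 0 gave 2 arrays. Groups hold 2 arrays titled as biological replicates, except every 3F day, day 12 of GFP and the last 2 days of 4F, which hold 1; nothing says whether replicates came from separate embryos or cultures. The dishes were measured whole, so fewer cells of a type and less RNA per cell cannot be told apart.

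Values are log2 signals of probe sets on Affymetrix arrays, whose number limits the precision. Arrays with replicate number 1 were labelled from 120 ng of RNA and all others from 300 ng. In 4F and GFP, the arrays of days 10 and 12 have no replicate number, while all earlier ones have. A change after day 8 therefore cannot be told apart from a difference between those sets of arrays. On day 8, 10 of 11 fibroblast markers were lower and 6 of 8 pluripotency markers higher in 4F than in GFP. Among all genes, 13.0% were lower and 14.5% higher. The pluripotency list includes Pou5f1 and Sox2, which the viruses delivered. The mean log2 signal of the fibroblast list was 10.17 to 10.31 on day 0 and 10.42 to 12.15 in GFP. It was 9.57 to 10.55 in 4F and 10.49 to 11.07 in 3F. The macrophage list (9 genes) averaged 5.49 to 6.21 and the endothelial list (7 genes) 5.54 to 6.23 over all arrays. Of the macrophage genes, Laptm5 was higher in 4F on day 8 (6.37 to 9.25 over all 4F arrays, 8.04 to 9.0 in 3F and 5.68 to 6.08 in GFP) and Lyz2 was lower (5.07 to 7.34 in 4F against 6.27 to 8.47 in GFP); Cd68 reached 9.17 on a 4F array but was not called, and Ptprc and Adgre1 stayed at 5.38 or below. Of the endothelial genes, Tek was higher in 4F (7.72 to 8.93 against 5.53 to 7.47 in GFP), and Pecam1 and Cdh5 were not called. The part of these genes in the results below was not tested. Among the delivered factors, Pou5f1 (Oct4) read 6.05 to 9.93 in 4F against 5.22 to 5.6 in GFP. Sox2 read 5.74 to 9.48 against 5.31 to 5.57. The probe set of Klf4 read lower on every 4F array than on any GFP array (6.65 to 7.61 against 7.67 to 8.15). That of Myc was not above GFP (6.37 to 8.5 against 6.58 to 9.72). Of the 4 delivered factors, 2 were called higher and 1 lower in 4F on day 8. In 3F, where the c-Myc virus was left out, the Myc probe set read 7.95 to 9.37. Its median was 8.65 in 3F and 7.14 in 4F.

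Promoters of 4 members with an entry in the RefSeq promoter sequences are shown first, because the calls on their probe sets fell on different days. Adamtsl3 was called lower in 4F from day 1, Adamts12 from day 3 and Adamts1 on days 5 and 8. Adam22 was called higher in 4F on day 3. Adamts1 already read lower in 4F on day 1, without a call. Each line gives the 250 bases before the annotated start on the gene's strand, 5′ to 3′, in build GRCm38.p6. Capitals mark matches, on either strand, to a GC box (GGGCGG) or a TATA box (TATAAA).
Adamts1 (chr16:85803114-85803363, minus strand): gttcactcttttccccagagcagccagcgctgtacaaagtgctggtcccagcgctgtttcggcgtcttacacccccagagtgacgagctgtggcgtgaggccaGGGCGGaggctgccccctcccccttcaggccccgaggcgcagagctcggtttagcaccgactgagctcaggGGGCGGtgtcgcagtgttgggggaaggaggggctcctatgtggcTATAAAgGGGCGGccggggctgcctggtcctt
Adamts12 (chr15:11064523-11064772, plus strand): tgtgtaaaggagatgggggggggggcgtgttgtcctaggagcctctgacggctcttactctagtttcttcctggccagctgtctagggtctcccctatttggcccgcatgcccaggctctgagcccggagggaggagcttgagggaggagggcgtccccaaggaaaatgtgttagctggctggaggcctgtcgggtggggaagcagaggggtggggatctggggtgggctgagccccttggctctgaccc
Adamtsl3 (chr7:82335444-82335693, plus strand): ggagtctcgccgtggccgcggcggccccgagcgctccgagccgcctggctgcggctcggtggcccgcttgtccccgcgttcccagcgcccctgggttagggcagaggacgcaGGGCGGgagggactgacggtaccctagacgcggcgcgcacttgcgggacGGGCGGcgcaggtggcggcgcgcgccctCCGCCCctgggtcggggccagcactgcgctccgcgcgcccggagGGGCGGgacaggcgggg
Adam22 (chr5:8368161-8368410, minus strand): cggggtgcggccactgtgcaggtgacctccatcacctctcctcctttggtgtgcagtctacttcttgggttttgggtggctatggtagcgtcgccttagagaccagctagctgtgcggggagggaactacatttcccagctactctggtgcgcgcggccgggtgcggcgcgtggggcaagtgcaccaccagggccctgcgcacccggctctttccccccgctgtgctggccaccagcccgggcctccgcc

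The Adamts1 stretch held 3 GC boxes and 1 TATA box, and the Adamtsl3 stretch held 4 GC boxes. The Adamts12 and Adam22 stretches held neither, nor an AP-1 site (TGACTCA), an E-box (CACGTG) or a CCAAT box (CCAAT). GC content was 65.6% for Adamts1, 63.2% for Adamts12, 80.0% for Adamtsl3 and 66.8% for Adam22. Of the 57 members, 31 had an entry, with 33 entries in all. A GC box lay in 14 of these (42.4%) against 32.7% of all 32851 promoter entries, a CCAAT box in 12 (36.4% against 33.8%), a TATA box in 5 (15.2% against 12.4%), an E-box in 4 (12.1% against 6.02%) and an AP-1 site in 2 (6.06% against 4.46%). These are letter matches in a fixed window, and no match says only that the letters are not in it.

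The 22 ADAM genes known from the reproductive tract stayed below 6.092, the median of all values in the table, on every array, and the span between their lowest and highest array was 0.117 to 0.643 log2 units, with a median of 0.276. Over all 57 members the median span was 0.643, and over all genes it was 0.795. In all, 27 members lay below the median of all values on all 31 arrays, among them Adam28, Adamts13, Adamts18, Adamts19 and Adamtsl2 outside the reproductive tract class, and 17 above it on all of them. With no detection call in the table, a low signal does not tell whether a gene is transcribed. Adam1a, the reproductive tract member of highest mean signal, read 5.18 to 5.68 over the 31 arrays, with no separation of the arms: 5.42 and 5.58 on day 0, 5.60 and 5.39 in GFP on day 8 and 5.47 and 5.44 in 4F on day 8.

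**Figure D1:**
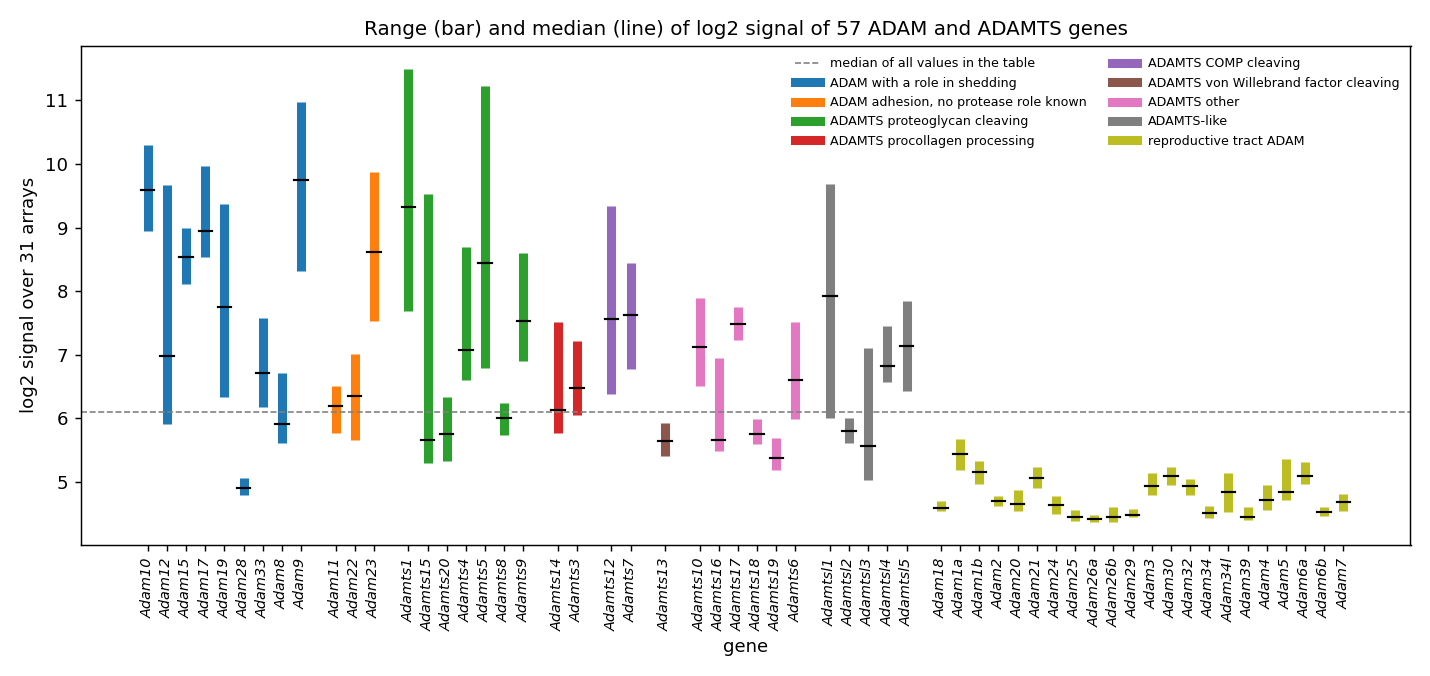
Log2 signal of each of the 57 members over the 31 arrays, by role class; bars run from the lowest to the highest array, black ticks are medians, and the dashed line is the median of all values in the table. The 22 reproductive tract genes lie below that line on every array with spans of 0.643 or less, while Adamts5 spans 4.426 log2 units.

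The main comparison asked how the 4 factors, against the GFP virus, changed signal day by day. By day 8, signal for 20 of the 57 members was lower in 4F than in GFP and for none higher. The lower members were led by Adamts5, Adam12, Adamts15, Adamts12, Adamts1, Adam9 and Adam19, all at least 3.99-fold lower. Among all 19938 genes, 13.0% were lower and 14.5% higher on day 8. No member was higher at an unadjusted p under 0.05 either. The median difference was -0.15 log2 units over the members and -0.03 over all genes. Tests used limma across all genes with Benjamini-Hochberg adjustment, and a gene is called at an adjusted p under 0.05.

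The number of members called grew with time, from 1 on day 1 (1.81% of all genes called) to 11 on day 3 (11.9%), 13 on day 5 (21.4%) and 20 on day 8 (27.6%). Of these, 1 was lower on day 1 (0.391% of all genes), 8 on day 3 (5.65%), 12 on day 5 (10.9%) and 20 on day 8 (13.0%). All genes showed a growing count as well, so the share of all genes stands beside each. In the mean over days 1, 3, 5 and 8, 25 members were called (37.4% of all genes), 22 of them lower (18.7% of all genes) and 3 higher (18.8%): Adam22, Adamts7 and Adamts20. Of the 11 fibroblast markers, 0 were called lower in 4F on day 1, 8 on day 3, 9 on day 5 and 10 on day 8. The part of these markers in the result was not tested. Leaving out the GFP replicate 1 array of day 3 left 5 calls on that day, and leaving out the 4F replicate 1 array left 7; with the labelling set as a term, day 1 had 3 calls and day 5 had 20.

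**Figure D2:**
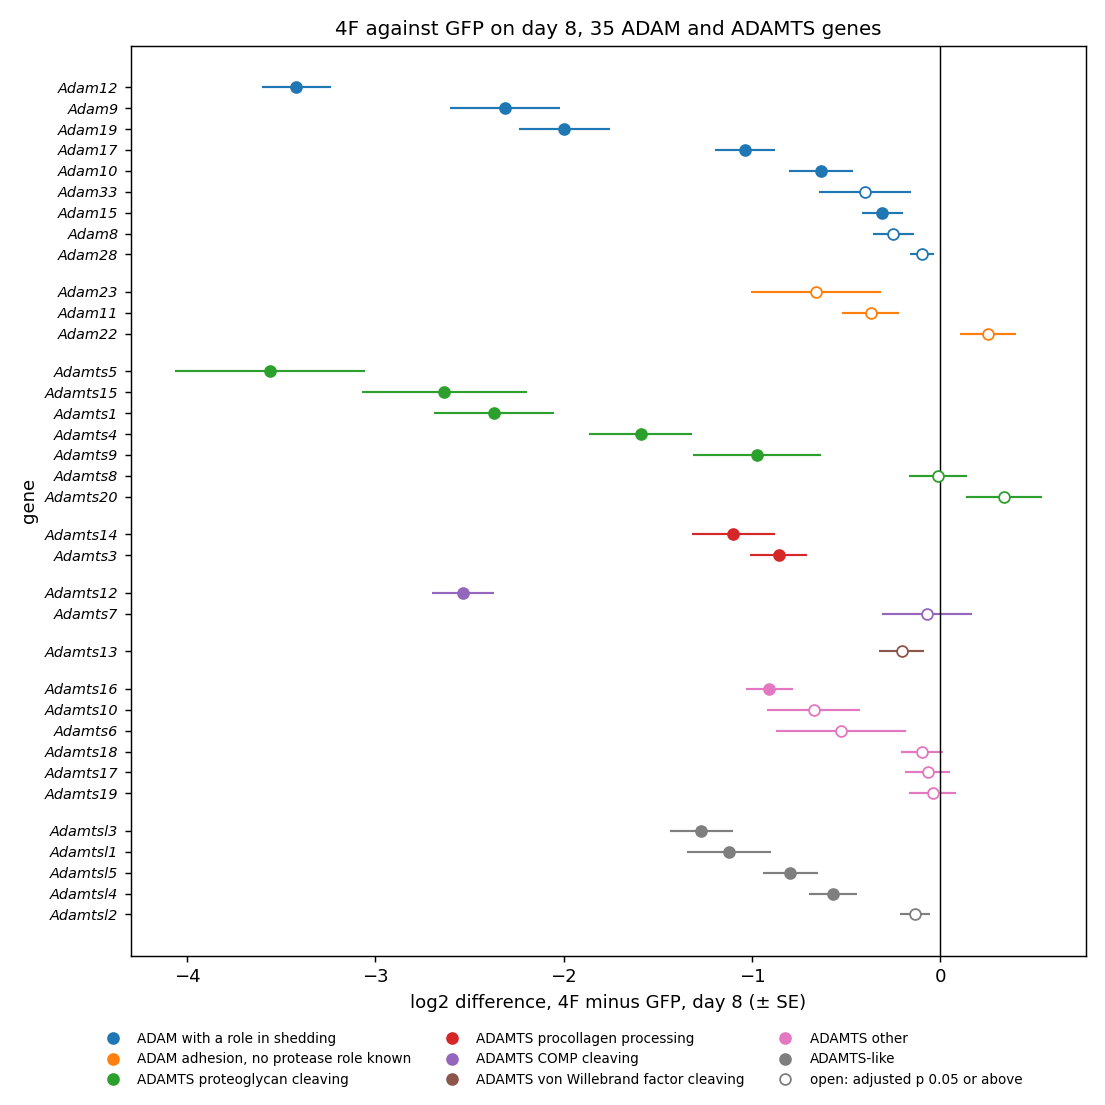
Log2 difference between 4F and GFP on day 8 (points, with bars for ± SE; 2 arrays per group) for the 35 members outside the reproductive tract class, coloured by role; filled points have an adjusted p under 0.05. Filled points all lie left of 0, from -3.56 for Adamts5 to -0.31 for Adam15.

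Among the 9 ADAM genes with a known role in shedding, 6 were lower in 4F on day 8 and none higher, with a median difference of -0.64. Adam12, a protease of mesenchymal and muscle precursor cells, read 9.52 and 9.51 in GFP on day 8 and 6.18 and 6.00 in 4F. It had been 8.68 and 8.54 on day 0. In 4F it stood at 7.76 and 7.86 on day 1, 6.45 and 6.97 on day 2, 6.52 and 6.79 on day 3, 6.38 and 6.34 on day 4, 6.23 and 6.33 on day 5, 6.07 and 6.54 on day 6, 5.99 on day 10 and 5.90 on day 12. Every GFP array, at 8.15 or above, was higher than every 4F array. The day 8 difference was -3.42 ± 0.18 (SE, 2 arrays per group), or 10.7-fold lower, with an adjusted p of 2.69e-08 by limma; it was -3.33 in the replicate 1 set and -3.51 in the replicate 2 set.

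Adam9, a widely expressed sheddase, read 10.72 and 10.80 in GFP on day 8 against 8.50 and 8.40 in 4F. On day 1 the arms overlapped, at 10.17 and 10.57 in GFP and 9.78 and 10.33 in 4F. From day 2 on, the 4F arrays, at 8.32 to 9.75, lay below every GFP array. The day 8 difference was -2.31 ± 0.29, or 4.97-fold lower (limma adjusted p = 2.9e-05). Adam19, which can process neuregulins, read 8.44 and 8.83 in GFP on day 8 and 6.56 and 6.72 in 4F, a difference of -2.0 ± 0.24, or 3.99-fold (limma adjusted p = 2.12e-05). Its 4F arrays, at 6.33 to 7.75, lay below all GFP arrays, at 7.85 to 9.37.

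The 2 most studied sheddases had smaller differences. Adam17, which releases TNF and several EGF family ligands, read 9.97 and 9.36 in GFP on day 8 against 8.53 and 8.73 in 4F, a difference of -1.04 ± 0.16 (limma adjusted p = 0.000152). Adam10, which cuts Notch receptors and many adhesion proteins, read 9.75 and 9.66 against 8.94 and 9.21, a difference of -0.64 ± 0.17 (limma adjusted p = 0.0101). On day 1 the Adam10 order was the other way round, with 9.73 and 10.01 in 4F and 9.28 and 9.62 in GFP; that difference (0.43 ± 0.17, and 0.46 and 0.39 within the labelling sets) had an adjusted p of 0.274, and of 0.0211 with the labelling set as a term. Its day 8 call was lost without 4F replicate 1 (-0.50, adjusted p = 0.101) and without GFP replicate 1 (-0.59, adjusted p = 0.0632). Adam15 differed by -0.31 ± 0.11 (limma adjusted p = 0.0448), and this call was lost when any of the 4 arrays was left out. Adam8 (-0.25), Adam33 (-0.40) and Adam28 (-0.10) did not pass the test on day 8.

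None of the 3 adhesion ADAM genes was called on day 8, when 27.6% of all genes were called. Their proteins lack the protease's active site and act at the surface of nerve cells. In the mean over days, Adam22 was called higher and Adam11 and Adam23 lower (37.4% of all genes called). With 1 array left out, the Adam11 difference ran from -0.268 to -0.171. Adam22, the receptor for LGI proteins at synapses, was higher in 4F on day 3, at 6.69 and 6.57 against 5.87 and 5.73 in GFP, a difference of 0.83 ± 0.15 (limma adjusted p = 0.00179). It reached its 4F high of 6.55 and 6.95 on day 2 and was down to 5.73 on day 12. On day 8 the arms read 6.41 and 6.43 in 4F against 5.99 and 6.35 in GFP (0.25, adjusted p = 0.247). Adam23 was lower in 4F on day 5 (-1.12 ± 0.34, limma adjusted p = 0.029), when it read 8.11 and 8.32 against 9.52 and 9.15, a call lost when any of the 4 arrays was left out. On day 8 its 4F arrays stood far apart, at 8.29 and 9.48, below the GFP arrays at 9.58 and 9.51 (-0.66, adjusted p = 0.188).

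Of the proteoglycan-cleaving ADAMTS genes, 5 of 7 were lower on day 8, with a median of -1.59. Adamts5, a main aggrecan-cleaving enzyme, read 10.97 and 10.73 in GFP on day 8 and 7.72 and 6.85 in 4F. On day 1 it read 10.22 and 8.91 in GFP and 7.62 and 8.00 in 4F, and on day 3 it read 10.43 and 10.33 against 8.18 and 9.33. All 4F arrays but the replicate 2 arrays of days 3 and 4 were below both day 0 arrays, at 8.27 and 9.19. The day 8 difference was -3.56 ± 0.51, or 11.8-fold lower (limma adjusted p = 7.86e-05), with -3.24 and -3.88 in the labelling sets.

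Adamts1, an inflammation-induced enzyme that cleaves versican, read 11.24 and 10.78 in GFP on day 8 and 8.60 and 8.68 in 4F. On day 1 it read 10.47 and 9.83 in GFP and 8.85 and 9.43 in 4F, without a call. Every 4F array, at 9.78 or below, lay below every GFP array, at 9.83 or above. The Adamts1 difference was -0.75 on day 3 (limma adjusted p = 0.156), -1.88 ± 0.32 on day 5 and -2.37 ± 0.32 on day 8. The last was 5.17-fold with a limma adjusted p of 4.94e-05. The promoter stretch of Adamts1 is printed above. In 4F the lowest values came last, at 7.69 on day 10 and 7.75 on day 12, both on arrays without a replicate number.

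Adamts15 rose in GFP: it read 5.45 and 5.44 on day 0, 9.31 and 7.16 in GFP on day 8 and 9.53 in GFP on day 12, while all 4F arrays stayed at 5.30 to 5.89. The GFP replicates of day 8 stood far apart, and the difference was -3.52 in the replicate 1 set against -1.75 in the replicate 2 set. The fitted difference was -2.63 ± 0.44, or 6.21-fold (limma adjusted p = 0.000295), and the call was lost when only the arrays of the compared groups were fitted. Without GFP replicate 1 the difference was -1.56 (adjusted p = 0.000225). Adamts4, the other main aggrecan-cleaving enzyme, read 8.40 and 8.70 in GFP and 7.06 and 6.86 in 4F on day 8, a difference of -1.59 ± 0.27 (limma adjusted p = 0.000401). Its 4F arrays stayed at 6.61 to 7.25 throughout.

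Adamts9, a versican-cleaving enzyme, differed by -0.97 ± 0.34 (limma adjusted p = 0.0442), at 8.61 and 8.03 in GFP and 7.74 and 6.94 in 4F. Its 6 rows all read lower in 4F, by -0.97 to -2.01 with a median of -1.76, so the row used here showed the smallest difference. In that row the call was lost without 4F replicate 2 (-0.57, adjusted p = 0.333) and without GFP replicate 1 (-0.69, adjusted p = 0.296). Adamts20, known from pigment cell migration and palate closure, was higher in 4F on day 5 (0.79 ± 0.20, limma adjusted p = 0.0105), at 6.33 and 6.13 against 5.33 and 5.55; the call was lost without 4F replicate 1 (adjusted p = 0.1) and without GFP replicate 1 (adjusted p = 0.0882). On day 8 it read 6.28 and 5.77 against 5.72 and 5.66 (0.34, adjusted p = 0.259). Adamts8 was not called in any of the 10 comparisons.

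**Figure D3:**
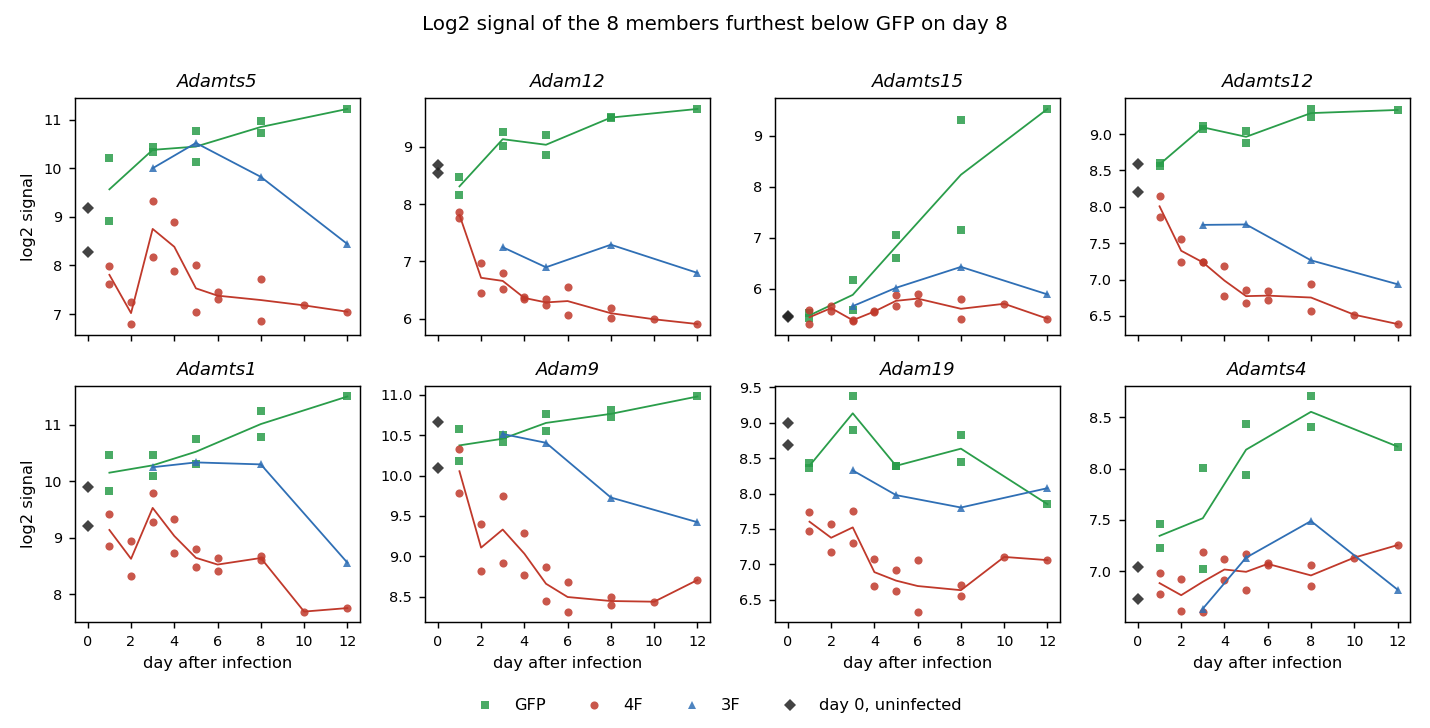
Log2 signal by day after infection for the 8 members furthest below GFP on day 8; points are arrays, lines join the means of each day, and colours mark GFP, 4F, 3F and the uninfected cells of day 0. In Adam12 every 4F array lies below every GFP array, and in Adamts15 and Adamts4 the 4F arrays stay near the day 0 level.

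Both procollagen-trimming genes were lower in 4F on day 8. Adamts14 read 7.39 and 7.03 in GFP and 6.28 and 5.94 in 4F, a difference of -1.10 ± 0.22 (limma adjusted p = 0.00142), and its 4F arrays never left 5.77 to 6.31. Adamts3 read 7.22 and 6.89 against 6.15 and 6.24, a difference of -0.86 ± 0.15 (limma adjusted p = 0.000489). All 16 rows of Adamts3 read lower in 4F, by -0.15 to -0.86, and the row used here was the one of largest difference. On day 1, Adamts3 read 6.33 and 6.57 in GFP and 6.51 and 6.72 in 4F.

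The genes of the enzymes that cut COMP went separate ways. Adamts12 read 9.23 and 9.35 in GFP on day 8 and 6.94 and 6.57 in 4F, a difference of -2.54 ± 0.17, or 5.8-fold (limma adjusted p = 1.09e-07). It was already lower on day 3 (-1.86 ± 0.17), and its 4F signal ended at 6.39 on day 12. Adamts7 was instead higher in 4F on day 3, at 8.09 and 8.20 against 7.14 and 6.99 in GFP, a difference of 1.08 ± 0.24 (limma adjusted p = 0.00807; 0.0533 without 4F replicate 2). By day 8 it read 7.63 and 7.43 in 4F and 8.11 and 7.09 in GFP, with the 4F values inside the GFP range (-0.07, adjusted p = 0.886).

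Of the remaining secreted proteases, Adamts16 was lower on day 8 (-0.91 ± 0.13, limma adjusted p = 6.44e-05), at 5.56 and 5.69 in 4F against 6.74 and 6.33 in GFP. Adamts10, which acts on fibrillin microfibrils, read 7.01 and 6.65 in 4F against 7.63 and 7.38 (-0.67, adjusted p = 0.0558), and it was called in the mean over days (-0.51 ± 0.12, limma adjusted p = 0.00407). Adamts6 (-0.53) did not pass the test on day 8. Adamts17, the member of highest mean signal in that class, stayed within 7.24 to 7.75 over all 31 arrays; 4 of its 5 rows read lower in 4F on day 8, by up to -0.30. Adamts13, the von Willebrand factor protease, stayed at 5.40 to 5.93. Adamts13, Adamts17, Adamts18 and Adamts19 were not called in any comparison, nor were Adam28, Adamts8 and 20 of the 22 reproductive tract genes, which makes 26 members in all.

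Of the 5 ADAMTS-like genes, 4 were lower on day 8. Adamtsl3 was the one member called on day 1: it read 6.90 and 7.11 in GFP and 6.04 and 6.34 in 4F, a difference of -0.81 ± 0.17 (limma adjusted p = 0.0237), and the call was lost when any of the 4 arrays was left out. It was lower on all 4 days compared, and on day 8 it read 6.56 and 6.20 against 5.17 and 5.05 (-1.27 ± 0.17, limma adjusted p = 3.97e-05). Its promoter stretch, printed above, is the richest in G and C of those shown. Adamtsl5 read 7.53 and 7.13 in GFP and 6.63 and 6.43 in 4F on day 8 (-0.80 ± 0.14, limma adjusted p = 0.000637). Adamtsl4 was lower on day 8 (-0.57 ± 0.13) and higher on day 3 (0.46 ± 0.13, limma adjusted p = 0.0282), the day 3 call being lost when any of the 4 arrays was left out.

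Adamtsl1 increased in both arms. It read 6.01 and 6.35 on day 0, 8.46 and 8.84 in GFP on day 8 and 7.54 and 7.52 in 4F, so 4F stood below GFP (-1.12 ± 0.22, limma adjusted p = 0.00127) and above day 0. In 4F it was already at 8.24 and 8.43 on day 3, beside 8.00 and 7.57 in GFP. Both rows of Adamtsl1 read lower in 4F on day 8, by -0.45 and -1.12, and the row used here showed the larger difference. Of the reproductive tract class, Adam5 alone was lower on day 8 (-0.24, limma adjusted p = 0.028), at a low signal: its arrays read 4.72 to 4.98 in 4F and 4.93 to 5.37 in GFP. That call was lost in 3 of 4 fits with an array left out: without either 4F array or without GFP replicate 2 (-0.20, adjusted p = 0.156).

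Whether the 4F difference lay in 4F or in GFP was asked by setting day 8 of each arm against day 0. In GFP, 16 members were called (20.1% of all genes), 15 higher (8.92% of all genes) and 1 lower (11.2%). In 4F, 9 were called, 15.8% of the members and 15.9% of all genes, so the called share did not stand out. Of these, 7 were lower (8.51% of all genes) and 2 higher (7.39%). These comparisons share the day 0 arrays, and the median change was 0.11 for the members in GFP (0.02 over all genes) and -0.04 in 4F (0 over all genes).

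Some members fell below their starting level in 4F. The change in 4F was -2.52 ± 0.18 log2 units for Adam12, -2.20 ± 0.24 for Adam19, -1.93 ± 0.29 for Adam9 and -1.65 ± 0.17 for Adamts12, with limma adjusted p values of 5.93e-07, 2.48e-05, 0.000312 and 1.05e-05. Adamtsl3 (-1.16 ± 0.17), Adamtsl5 (-0.81 ± 0.14) and Adam8 (-0.80 ± 0.11) were the others. In GFP, Adam9 (0.39, adjusted p = 0.446) and Adam19 (-0.21, adjusted p = 0.664) did not pass the test, while Adam12 (0.90 ± 0.18) and Adamts12 (0.89 ± 0.17) rose.

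Other members rose in GFP and did not pass the test in 4F. Adamts15 rose in GFP by 2.79 ± 0.44, with 3.86 in the replicate 1 set and 1.72 in the replicate 2 set, and differed by 0.16 in 4F (adjusted p = 0.906). Adamts4 rose by 1.67 ± 0.27 in GFP and differed by 0.08 in 4F (adjusted p = 0.93). The proteoglycan-cleaving class had 4 of 7 members higher than day 0 in GFP (8.92% of all genes higher). None of the 7 was called in 4F, which is not far from the share of all genes (15.9% called). In 4F, 2 of the class were lower at an unadjusted p under 0.05 in limma. Adamts5 rose by 2.12 ± 0.51 in GFP (limma adjusted p = 0.00702) and differed by -1.45 ± 0.51 in 4F (adjusted p = 0.0693); the GFP call was lost without the day 0 replicate 1 array (1.66, adjusted p = 0.0909) and without GFP replicate 1 (adjusted p = 0.0535). Adamts1 rose by 1.45 ± 0.32 in GFP and differed by -0.92 ± 0.32 in 4F (adjusted p = 0.068), with the GFP call lost without the same arrays (adjusted p of 0.0649 and 0.0524).

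Adam23 rose by 1.67 ± 0.34 in GFP, Adamts14 by 0.97, Adamts16 by 0.90, Adam17 by 0.83, Adamts3 by 0.77, Adamtsl4 by 0.54 and Adam15 by 0.50. In 4F, Adam23 read 8.29 and 9.48 on day 8 against 7.78 and 7.97 on day 0, without a call. It read 9.69 in 4F on day 10 and 9.65 on day 12, beside 9.87 in GFP on day 12. Adam22 and Adamtsl1 rose in both arms: Adam22 by 0.50 in GFP and 0.76 ± 0.15 in 4F, and Adamtsl1 by 2.47 ± 0.22 in GFP and 1.35 ± 0.22 in 4F. Leaving out 1 array lost the GFP call of Adam22 in 3 of 4 fits, all but the one without GFP replicate 1, of Adamtsl4 in 2 (day 0 or GFP replicate 1), of Adam15 without day 0 replicate 1 (adjusted p = 0.0502) and of Adamts14 without GFP replicate 1 (adjusted p = 0.0692). Adam8, a leukocyte and osteoclast protease, fell in both (-0.55 ± 0.11 in GFP and -0.80 ± 0.11 in 4F). Of the fibroblast markers, 7 of 11 were higher on day 8 than on day 0 in GFP; their part in the result was not tested.

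**Figure D4:**
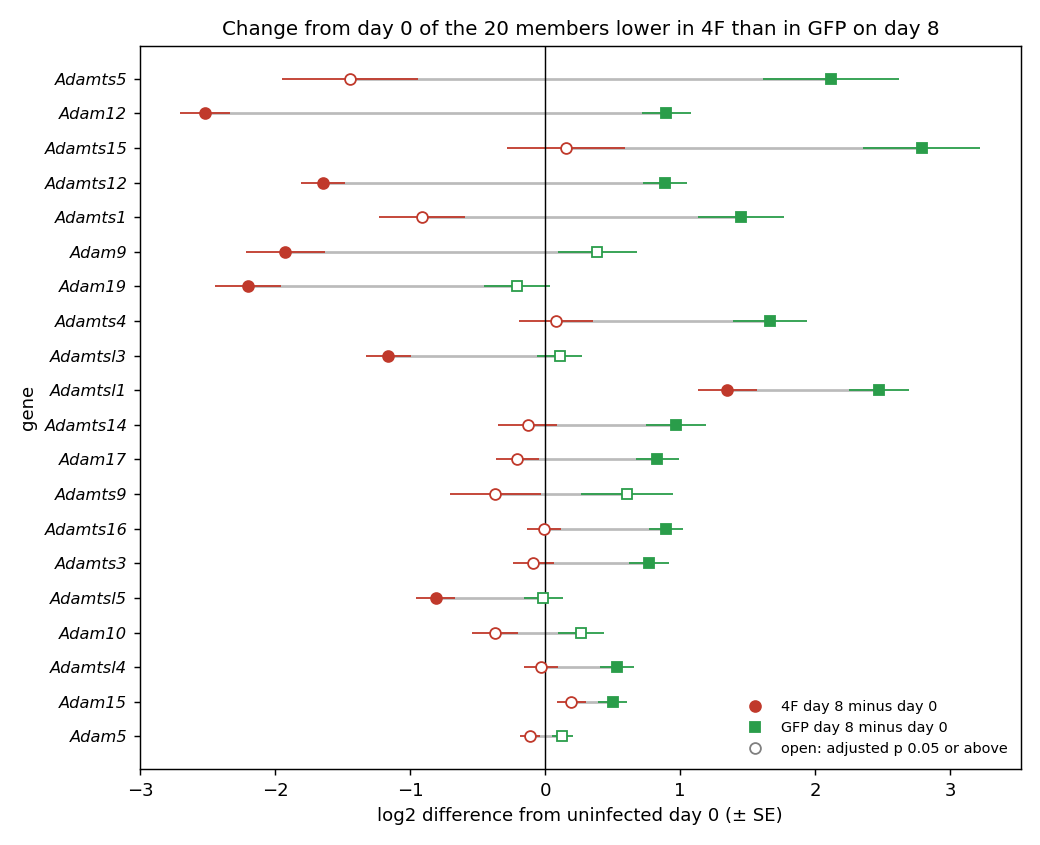
Log2 change from day 0 to day 8 in 4F (circles) and GFP (squares), with bars for ± SE and 2 arrays per group, for the 20 members lower in 4F than in GFP on day 8; filled symbols have an adjusted p under 0.05. Adam12 and Adamts12 moved down in 4F and up in GFP, whereas Adamts15 and Adamts4 moved in GFP with the 4F symbol near 0.

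The difference between the day 8 and the day 1 contrast was tested as such. It was called for 12 members, all toward lower 4F signal on day 8 (8.49% of all genes called, 4.57% in that direction and 3.92% in the other). Adam12 led with -2.92 ± 0.26 (limma adjusted p = 2.26e-05), followed by Adamts15 (-2.60), Adam9 (-1.99) and Adamts12 (-1.96). It was not called for Adamtsl3 or for Adamts5. On day 1, Adamts5 read 7.62 and 8.00 in 4F and 10.22 and 8.91 in GFP, without a call. Without the 4F replicate 2 array of day 1, 6 calls were left, and without the GFP replicate 2 array, 7.

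The 3F arm, which lacks the c-Myc virus, was compared with GFP over days 3, 5, 8 and 12 in a model with a term for each day and each arm. Here 15 members were called (18.3% of all genes), 13 lower (8.82%) and 2 higher (9.47%). The member furthest below GFP was Adam12, at 7.25, 6.90, 7.29 and 6.80 on days 3, 5, 8 and 12, below every GFP array; its difference from GFP was -2.22 ± 0.17 (limma adjusted p = 1.18e-06). Adamts12 read 7.75, 7.76, 7.26 and 6.93, also below every GFP array (-1.69 ± 0.16, limma adjusted p = 6.25e-06). Adamts14 read 5.93 to 6.09 (-1.07 ± 0.14) and Adamtsl3 5.29 to 5.85 (-0.70 ± 0.10).

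Adamts7 and Adam22 were the members higher in 3F than in GFP. Adamts7 read 8.43, 8.45, 8.34 and 8.29, above all GFP arrays, whose highest was 8.11, with a difference of 1.07 ± 0.21 (limma adjusted p = 0.00238). Adam22 read 7.01, 6.88, 6.69 and 6.29 (0.68 ± 0.15, limma adjusted p = 0.00532). All 3F arrays belong to the arrays without a replicate number, so with the labelling set as a term they are compared through day 12 alone. In that fit 9 members were called, all lower, with adjusted p of 0.00142 for Adam12, 0.00175 for Adamts12, 0.0679 for Adamts7 and 0.35 for Adam22. Without the 3F array of day 5, 10 were called in the fit without that term.

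Against 4F, 9 members were higher in 3F and none lower (9.63% of all genes called, 5.77% higher and 3.87% lower). They were Adamts5 (2.02 ± 0.43), Adamtsl1 (1.28 ± 0.33), Adam9 (1.23 ± 0.23), Adam19 (1.08 ± 0.17), Adam12 (0.79 ± 0.17), Adamtsl5 (0.71 ± 0.15), Adamts6 (0.70 ± 0.21), Adamts12 (0.62 ± 0.16) and Adamtsl3 (0.34 ± 0.10), with limma adjusted p from 0.00272 for Adam19 to 0.049 for Adamtsl3. At an unadjusted p under 0.05, 1 member was lower and 15 were higher. This comparison shares the 3F arrays with the one before. With the labelling set as a term no member was called, and Adamtsl1 changed sign to -0.21 (adjusted p = 0.992), so these differences rest on the fit without that term. Leaving out the 3F array of day 3, 5 or 8 left 4, 1 or 2 calls; of the 9, only Adam19 was called in all 11 fits that left out 1 array.

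The levels by day show where the arms parted. Adam9 in 3F read 10.51, 10.40, 9.73 and 9.42 on days 3, 5, 8 and 12, against 8.92 and 9.75, 8.45 and 8.88, 8.50 and 8.40, and 8.71 in 4F on the same days. Adam19 read 8.33, 7.98, 7.80 and 8.08 in 3F, above every 4F array. Adamts5 read 10.00, 10.52 and 9.82 in 3F on days 3, 5 and 8. In GFP it read 10.43 and 10.33 on day 3, 10.13 and 10.77 on day 5 and 10.97 and 10.73 on day 8. The 3F array thus lay between the GFP arrays on day 5 and below both on days 3 and 8. On day 12 it read 8.44 in 3F, when GFP stood at 11.22 and 4F at 7.05.

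Adamts1 showed the same order without a call against 4F (1.16, adjusted p = 0.0682): it read 10.25, 10.33 and 10.30 in 3F on days 3, 5 and 8 and 8.56 on day 12. Adamtsl5 in 3F read 7.61, 7.85 and 7.37 on days 3, 5 and 8 and 6.75 on day 12, when 4F stood at 6.67. Adamtsl1 read 9.24, 9.63 and 9.69 in 3F, above all 4F arrays and all GFP arrays of those days, and 8.43 on day 12, beside 8.39 in 4F and 9.20 in GFP. Of the fibroblast markers, 7 of 11 were higher in 3F than in 4F and 8 of 11 lower than in GFP; their part in these results was not tested.

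**Figure D5:**
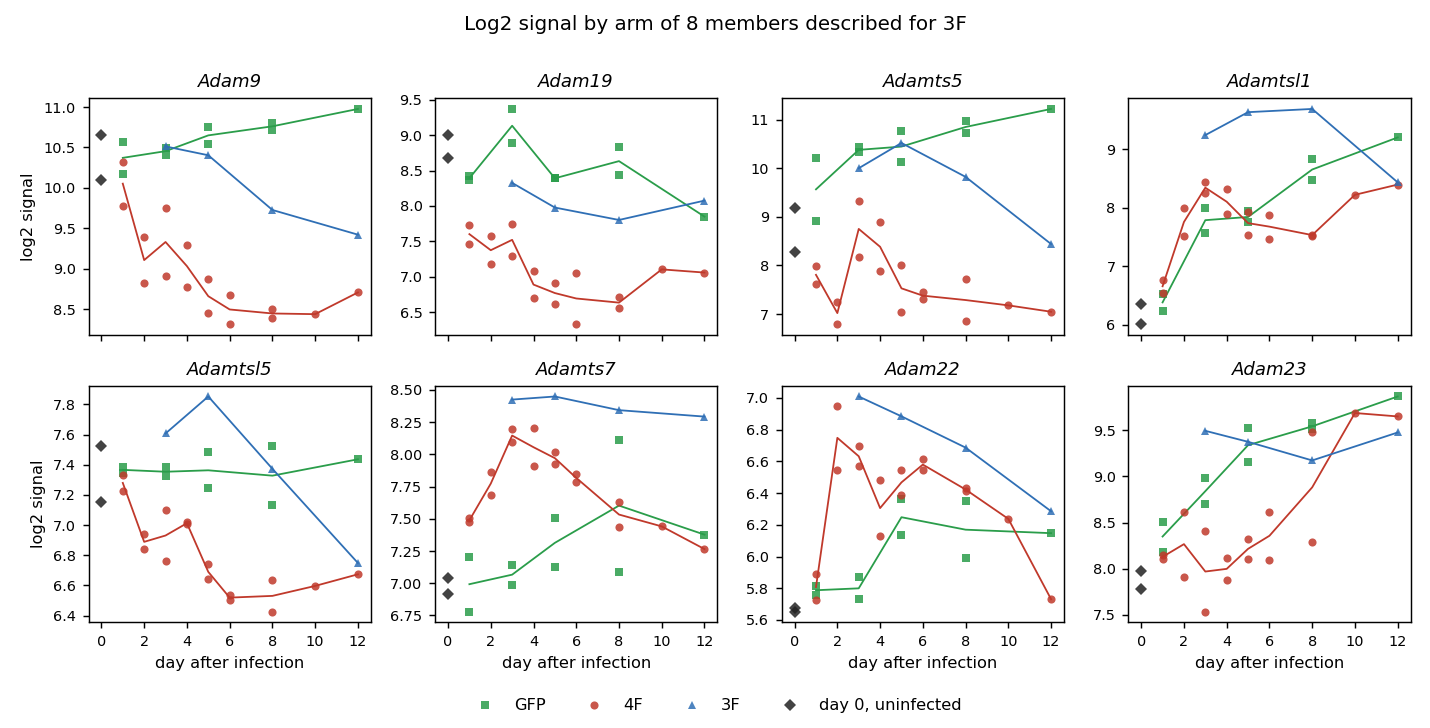
Log2 signal by day after infection for 8 members described for 3F; points are arrays, lines join the means of each day, and each 3F point is 1 array. In Adamts5 the 3F arrays of days 3, 5 and 8 lie at 9.82 to 10.52 and that of day 12 at 8.44, between GFP and 4F.

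Other genes of the pathway were read from lists written by known role; on day 8, 13.0% of all genes were lower and 14.5% higher in 4F. Of the 5 inhibitors of these proteases, 4 were lower in 4F than in GFP on day 8: Timp2 (-2.84 ± 0.20), Timp3 (-2.49 ± 0.44), the membrane-anchored Reck (-2.29 ± 0.25) and Timp1 (-2.26 ± 0.41); Timp4 (0.04) was not called. Timp3, the best known inhibitor of ADAM17 and of the aggrecan-cleaving ADAMTS enzymes, was lower alongside Adam17, Adamts4 and Adamts5. Against day 0, Timp1 (-2.14), Timp2 (-1.86) and Timp3 (-1.97) fell in 4F, whereas Reck rose by 2.32 in GFP and differed by 0.03 in 4F. The same 4 inhibitors were higher in 3F than in 4F (Timp3 by 1.97), where 5.77% of all genes were higher. None was called between 3F and GFP (18.3% of all genes called). For the inhibitors only the fit without the labelling set as a term was read. In the fit with it, no member kept a call between 3F and 4F.

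Of 15 genes for maturation and trafficking of ADAM and ADAMTS proteins, 6 were lower and 3 higher in 4F on day 8, the latter near the share of all genes. Tspan5 (-1.82) and Tspan15 (1.42), which encode tetraspanins that escort ADAM10, went opposite ways, and Pofut2 (-1.73), which adds fucose to the thrombospondin repeats of ADAMTS proteins, was lower. Among shed proteins, 1 of 7 measured EGF family ligands was lower, Nrg1 (-0.97 ± 0.22), a share near that of all genes, and Areg had no usable row. Of 21 other shed membrane proteins, 7 were lower and 1 higher, with Vcam1 (-2.86), Tnfrsf1a (-1.99) and App (-1.56) lower and Cdh1 (1.36), the epithelial cadherin, higher.

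Of 12 measured matrix substrates, 6 were lower on day 8 and none higher, with a median of -1.12. The versican gene Vcan (-2.82 ± 0.34), a substrate of the proteoglycan-cleaving class, was among them with Col1a1 (-2.46) and Col3a1 (-2.40), whose procollagens Adamts3 and Adamts14 proteins can trim, and with Comp (-2.24 ± 0.40). Col1a1, Col1a2 and Col3a1 also stand in the fibroblast marker list. Substrate genes and protease genes were thus lower in the same arrays, while no protease activity was measured.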

How the data were processed

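Signal was read in 31 arrays of 19 groups. The deposited values are log2 signals, 1 column per array, from 4.268 to 14.334 with column medians of 6.042 to 6.169; values were used as deposited, with normalization by the authors not given in the sources used here. Platform annotation gave 1 gene symbol to 21789 of 28853 rows, several to 1621 and none to 5443; rows of 1 symbol gave 19938 genes, and where rows differed the one of highest mean was kept. All 57 members were found by Entrez ID in RefSeq. Whether paralogous genes cross-hybridize was not examined, and no probe's level was set against another's.

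Testing used limma (3.58.1, under R 4.3.3): 1 mean per group over 31 arrays (12 residual degrees of freedom), and for 3F, terms for day and arm over 18 arrays. P-values were adjusted over 19938 genes. The fit was tested on simulated data with independent noise. The simulation held no effect of the labelling set, so it cannot show how such an effect would change the calls. The p-values measure the spread between these samples only. One 3F label says 4 factors while listing 3; titles decided.

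Per the labels, replicate number 1 marks arrays labelled from 120 ng, so numbers pair samples into labelling sets (12, 12 and 7 arrays). Replicate differences of 66 pairs of groups correlated across genes with r from 0.0808 to 0.686, 65 of them over 0.1. The pairing came from the labels and the correlations from the signals. The main fits held no term for the labelling set.

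Members and lists were chosen with earlier results of these data known. By rule, values per array cover the 8 called members furthest below GFP on day 8 (the rule also took up to 6 called above it, and there were none), the member of highest mean per class and the 4 of smallest adjusted p per direction in each 3F comparison; list genes named are the 3 of largest called difference per list, and other members were named to account for all. Adamts10, Adam8, Adam10, Adam17, Adamts9, Adamts16, Adamts20, Adamts3 and the other members outside that rule were described after their values were seen, as were Timp1, Timp4 and Comp among list genes. Alternatives were the labelling set as a term, quantile normalization, a filter on low signal, the mean over rows, an intensity trend, fitting only the compared groups, and leaving out each array.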

Additional observations from a re-analysis of the deposited data

Results flagged for a closer look

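For 12 members the difference between 4F and GFP changed between day 1 and day 8, by a test of that change itself in limma, with Benjamini-Hochberg adjustment over all genes. In log2 units, day 8 minus day 1, it was -2.92 for Adam12, -2.60 for Adamts15, -1.99 for Adam9, -1.96 for Adamts12, -1.40 for Adamtsl1 and -1.21 for Adam19. It was -1.06 for Adam10, -1.03 for Adam17, -1.02 for Adamts3, -0.81 for Adamts16, -0.71 for Adamtsl5 and -0.52 for Adam15. The adjusted p ran from 2.26e-05 for Adam12 to 0.047 for Adam15. Leaving out each of the 8 arrays in turn lost the call of Adam15 in 8 of 8 fits, Adam19 in 7, Adamtsl5 in 6, Adamts15 in 3, Adam10 and Adamtsl1 in 2 each and Adam17 in 1. Adamts15 then ranged from -3.675 to -1.519. No such fit lost the call of Adam12, Adam9, Adamts12, Adamts3 or Adamts16. Groups of 2 arrays are too small to test a single array as an outlier.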

How the results depend on the processing

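The 4F minus GFP count of called members in the mean over days (25) and the 4F count of day 8 against day 0 (9) stayed within 1.5 times under every alternative run. With the labelling set as a replicate block, 3 members were called on day 1 (1 as reported), 20 on day 5 (13), 9 for 3F minus GFP (15) and 0 for 3F minus 4F (9), where Adamtsl1 reversed to -0.212 (3 members had an unadjusted p under 0.05 in limma for 3F minus 4F in that fit). Fitting only the groups compared gave 0 on day 1 (11 members at an unadjusted p under 0.05 in limma), 5 on day 3 (11), 12 on day 8 (20), 6 for day 8 minus day 1 (12) and 10 for GFP day 8 minus day 0 (16); that fit has fewer samples. Averaging rows gave 2 on day 1. The cause of the other changes was not tested.

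Leaving out 1 array gave 0 to 0 calls on day 1 (6 or 7 members at an unadjusted p under 0.05 in limma), 5 to 9 on day 3, 9 to 11 on day 5, 17 to 19 on day 8, 23 to 25 in the mean over days, 6 to 11 for day 8 minus day 1, 9 to 10 for 4F and 11 to 18 for GFP against day 0, 10 to 16 for 3F minus GFP and 1 to 12 for 3F minus 4F. Where a group was left with 1 array, that array was assumed to vary like the other groups. Of the member values called as reported, taken over all alternatives, 1572 kept direction and side of the threshold, 224 lost the call and 1 reversed; calls gained under an alternative are not in these counts. Signals near the low end of the scale limit what the 22 reproductive tract genes can show.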
